A study of Mus musculus with 18 samples.

Results

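The 42 genes described here belong to the amino acid response: ATF4 and its stress response partners (8 genes), enzymes that make amino acids and one-carbon units (8), amino acid transporters (6) and the cytosolic aminoacyl-tRNA synthetases, the enzymes that load amino acids onto tRNA (20). They were chosen by name and known function, with earlier results of these data known. All 42 were found among the 11243 protein-coding genes of the count table. ATF4 is a transcription factor whose own mRNA is translated more when the initiation factor eIF2 is phosphorylated during amino acid shortage or other stress, and it also acts downstream of the growth kinase complex mTORC1. With C/EBP partners it binds C/EBP-ATF response elements and switches on genes that import amino acids, make them and charge tRNA with them. In macrophages, lipopolysaccharide (LPS) engages Toll-like receptor signalling, which changes both inflammatory gene expression and the demand for amino acids.

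The libraries came from RAW264.7 cells, an established mouse macrophage line, in 3 groups. Control cells received vehicle (DMSO), for a time that the sample labels do not give. LPS cells received LPS of Salmonella minnesota at 500 ng/mL for 6 h. The third group received the same LPS treatment with 100 nM torin1, a drug that blocks the kinase mTOR. Torin1 was given 15 min before LPS and together with it. Each group was grown in 3 independent experiments, numbered 1 to 3. From each lysate, RNA was sequenced both from a share of the whole lysate (total mRNA) and from pooled heavy polysome fractions of a sucrose gradient (polysome-associated mRNA), which made 18 libraries from 9 lysates. Torin1 was measured here only in cells that also received LPS, and RAW264.7 is a single transformed line.

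The libraries held 27800983 to 47725557 counted reads. Of 8 macrophage markers, 7 were in the table (Mertk was not). Their summed level spanned 10872 to 11764 CPM (a gene's share of the library's counts, scaled to a common library size) in control, 9578 to 11608 CPM in LPS and 8090 to 9215 CPM in LPS with torin1 total mRNA, and 15959 to 17356, 13542 to 17642 and 10471 to 13650 CPM in the polysome libraries. Of 10 markers of other cell types, only S100a8 was in the table, at 0.113 to 0.273 CPM in control, 2.10 to 5.90 CPM in LPS and 1.2503 to 3.62 CPM in LPS with torin1 total mRNA. The part of these shifts in the results below was not tested. All 5 LPS response genes that were measured, of 6 looked for, rose with LPS in both kinds of RNA. CPM values are shares of a library, so less RNA per cell and fewer cells of a kind cannot be told apart.

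Several members carry the ATF4 binding motif close to their start, and these windows are shown because the members that hold it lie in all 4 groups. The letters searched were TGATGNAA, on both strands, in RefSeq windows (GRCm38.p6, the build of the counts) of 250 bases before to 50 bases after each annotated start. A window was found for 32 of the 42 members, and 9 of these (28.1%) held the motif, against 254 of the 9006 genes of the table with a window (2.82%). Members were chosen in part as known ATF4 targets, so the choice itself favours a higher share, and the difference was not tested. It was in 1 of 7 ATF4 and stress response genes, 2 of 8 synthesis genes, 1 of 4 transporters and 5 of 13 cytosolic synthetases. Each line gives 30 bases of the gene's own strand, 5′ to 3′, with the motif or its reverse complement in capitals.
Trib3, chr2:152344028-152344057 (- strand): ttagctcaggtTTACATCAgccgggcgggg
Asns, chr6:7693214-7693243 (- strand): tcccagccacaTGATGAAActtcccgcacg
Pycr1, chr11:120643833-120643862 (- strand): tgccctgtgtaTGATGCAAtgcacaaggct
Slc1a4, chr11:20332699-20332728 (- strand): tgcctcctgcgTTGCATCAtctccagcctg
Aars, chr8:111033840-111033869 (+ strand): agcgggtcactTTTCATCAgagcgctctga
Gars, chr6:55037960-55037989 (+ strand): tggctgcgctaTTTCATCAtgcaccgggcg
Iars, chr13:49682126-49682155 (+ strand): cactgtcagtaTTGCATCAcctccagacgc
Tars, chr15:11399655-11399684 (- strand): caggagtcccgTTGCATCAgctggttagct
Yars, chr4:129189895-129189924 (+ strand): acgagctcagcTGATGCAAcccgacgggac
The cAMP response element, TGACGTCA, was held by 1 of the 32 members with a window, Ppp1r15a, and by 343 of the 9006 genes (3.81%).
Ppp1r15a, chr7:45526262-45526291 (- strand): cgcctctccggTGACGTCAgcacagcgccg
The windows were searched for letters only, and binding of ATF4 was not measured in these libraries.

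LPS raised most of the 42 genes, and torin1 lowered most of them in cells given LPS. In total mRNA, 31 members were higher with LPS than in control and 1, Mars, was lower, at the study's false discovery rate of 0.25 by edgeR's quasi-likelihood test with Benjamini-Hochberg adjustment over all 11243 genes. Of all genes, 32.2% were higher and 34.3% lower by the same rule, so the members' 73.8% higher stood above the table and their 2.38% lower stood below it. The median member changed by 0.38 on the log2 scale and the median gene by -0.02. In polysome-associated mRNA 23 members were higher and none lower, where 26.4% of all genes were higher and 28.7% lower, with a median of 0.33 against -0.03. There 16 of 42 members had an unadjusted p under 0.05, in either direction, as did 4790 of the 11243 genes, and DESeq2 also placed 0 lower. Without experiment 1 or 3 the 23 rises became 15, and without experiment 2 they became 24, with 2 members lower (Shmt2 and Vars). Shares of all genes by DESeq2 or without an experiment are not given here.

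With torin1 the direction was the opposite. In total mRNA 37 members were lower in LPS with torin1 than in LPS and 2, Cebpb and Ppp1r15a, were higher, against 26.4% lower and 27.3% higher among all genes. Their median change was -0.70, that of all genes 0.00. In polysome-associated mRNA 28 members were lower and 2, Cebpb and Qars, were higher, against 18.2% and 20.3% of all genes, with a median of -0.63. Both contrasts use the same LPS libraries, so a high LPS library moves a member up in the first and down in the second, and the values are given side by side without a relation between them. Without any overlap of the 3 libraries of each group, 24 members were higher and 1 lower with LPS in total mRNA (25.6% and 28.3% of all genes) and 18 were higher in polysome-associated mRNA (22.2%). For torin1 the counts were 34 lower and 2 higher in total mRNA (19.8% and 22.2% of all genes) and 23 lower and 2 higher in polysome-associated mRNA (15.5% and 17.3%).

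Treating the experiment as a replicate block gave similar counts. For LPS in total mRNA 33 members were then higher and 1 lower (35.3% and 37.8% of all genes), and in polysome-associated mRNA 28 were higher and 0 lower (29.8% and 33%). For torin1 versus LPS 2 were higher and 37 lower in total mRNA (32.6% and 31.4%), and 3 higher and 34 lower in polysome-associated mRNA (25.4% and 24.3%).

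**Figure D1:**
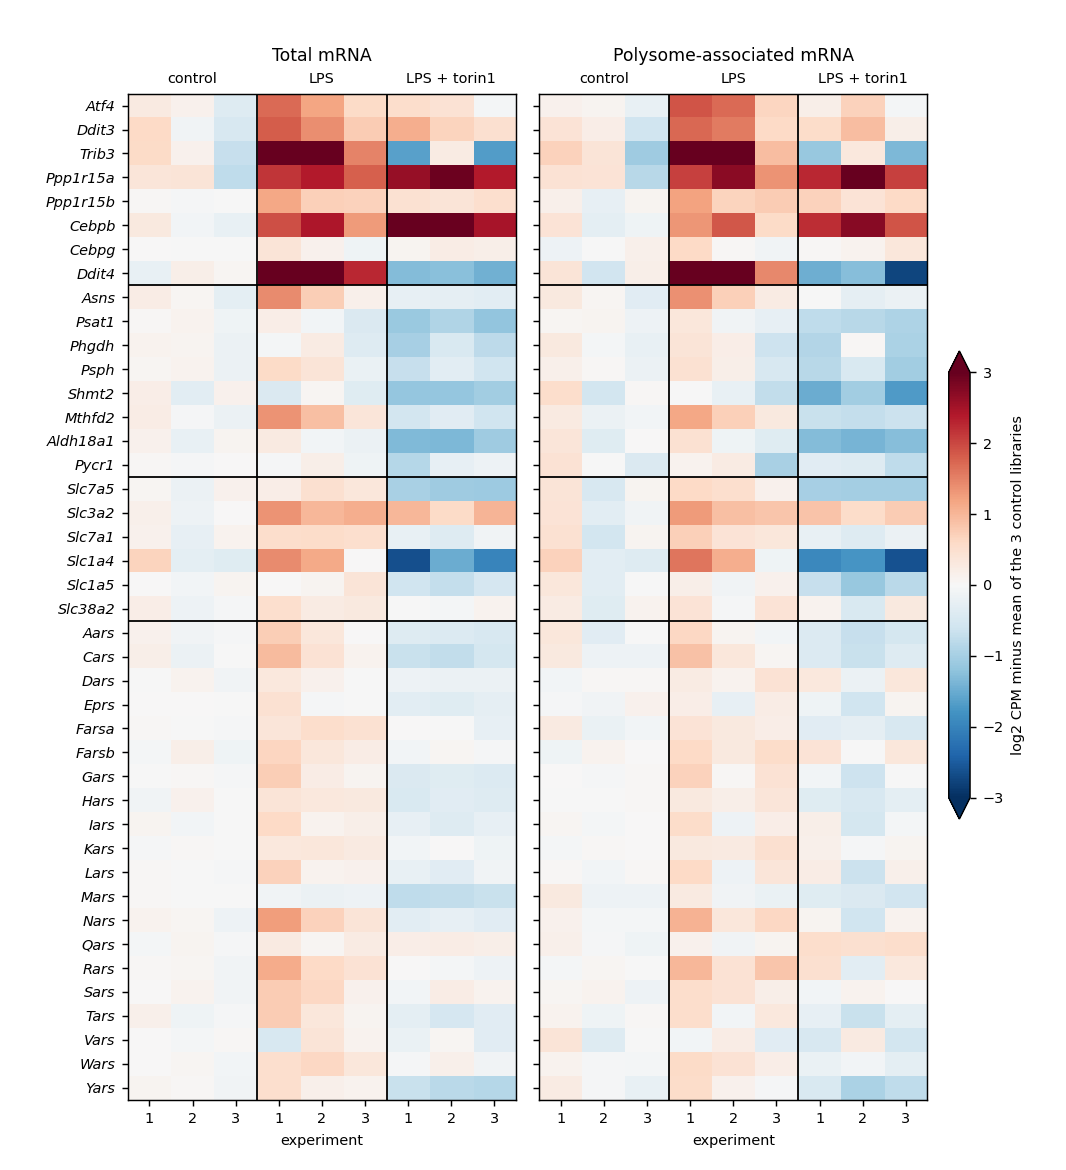
Level of each of the 42 genes (rows, in the order ATF4 and stress response, amino acid synthesis, amino acid transport, cytosolic tRNA synthetases) in each of the 18 libraries (columns, by treatment and experiment), as log2 CPM minus the mean log2 CPM of the 3 control libraries of the same kind of RNA; colours end at -3 and 3. The LPS columns of experiment 1 are the reddest for most rows, and the torin1 columns are blue for most synthesis genes and red for Ppp1r15a and Cebpb.

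**Figure D2:**
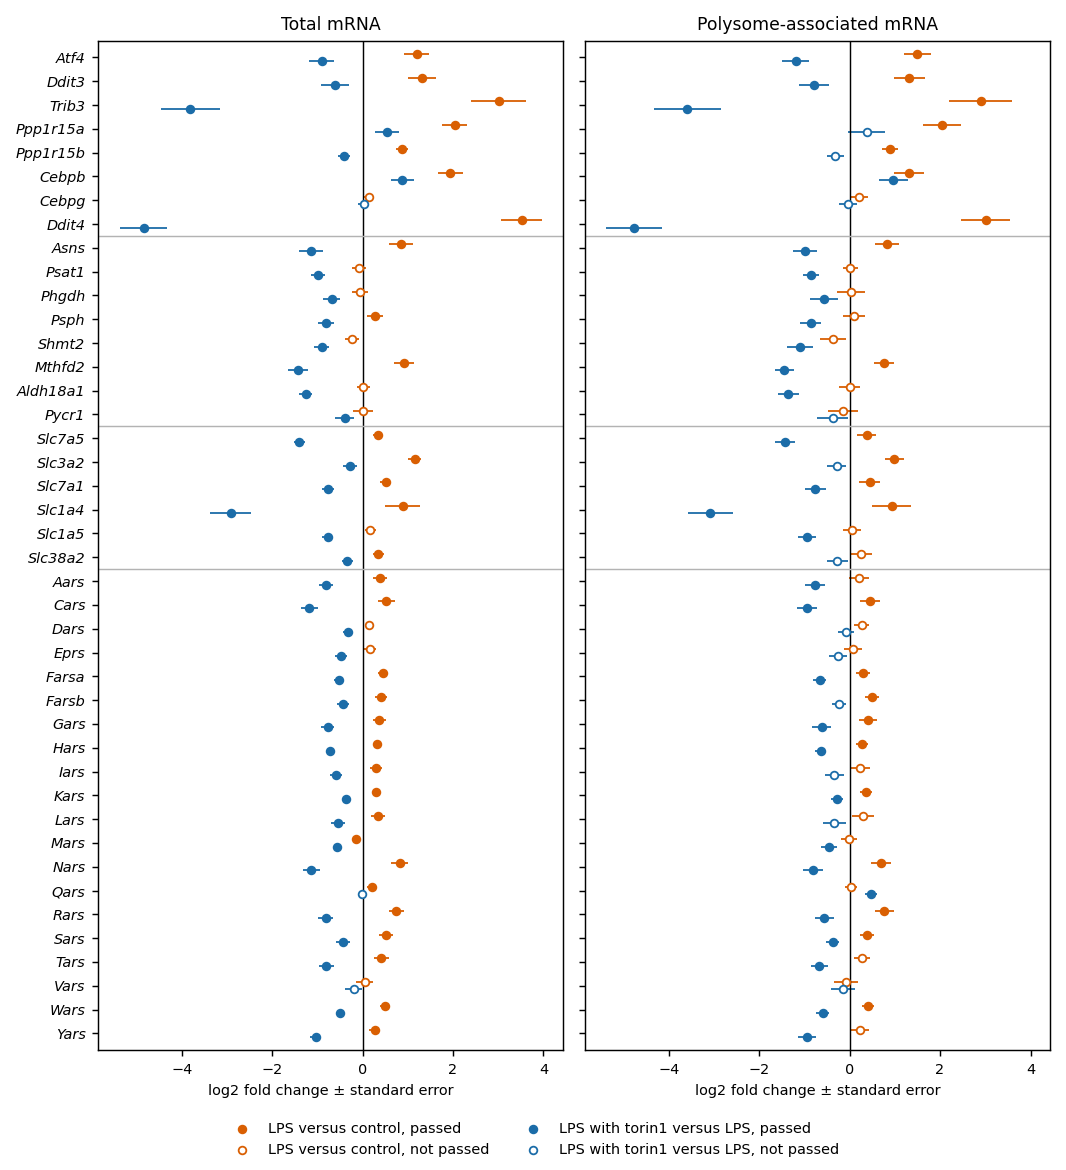
Log2 fold change with its standard error for each gene in LPS versus control (orange) and LPS with torin1 versus LPS (blue), in total (left) and polysome-associated mRNA (right). Filled points passed the false discovery rate of 0.25 and open points did not; filled orange points lie right of zero for 31 genes in total mRNA, and filled blue points lie left of zero for 37.

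Atf4 itself (chr15:80255184-80257541, GRCm38) rose with LPS and was lower with torin1 in both kinds of RNA. In total mRNA it stood at 301, 275 and 191 CPM in control experiments 1, 2 and 3, at 817, 573 and 373 CPM with LPS and at 359, 338 and 243 CPM with LPS and torin1. In polysome-associated mRNA the values were 247, 242 and 196 CPM in control, 842, 732 and 357 CPM with LPS and 258, 367 and 219 CPM with torin1. Each LPS library was above each control library. The torin1 libraries were below each LPS library in total mRNA, whereas in polysome-associated mRNA the torin1 library of experiment 2 was above the LPS library of experiment 3. The log2 fold changes (± SE, 3 libraries a group) for LPS versus control were 1.2 ± 0.27 in total (adjusted p = 0.0049) and 1.50 ± 0.30 in polysome-associated mRNA (adjusted p = 0.00354), or 2.30-fold and 2.82-fold. For torin1 versus LPS they were -0.91 ± 0.27 (adjusted p = 0.0308) and -1.19 ± 0.30 (adjusted p = 0.0262). Without experiment 1 the polysome fall was -0.89 and did not pass (adjusted p = 0.297).

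Ddit3 (chr10:127290774-127296288), which codes for CHOP, a stress-induced C/EBP family factor, followed Atf4 in direction. Total mRNA held 20.05, 12.4 and 9.54 CPM in control, 47.0, 34.96 and 22.5 CPM with LPS and 28.3, 21.01 and 18.7 CPM with torin1. The polysome values were 10.5, 9.07 and 5.30 CPM, 26.5, 23.5 and 12.1 CPM and 11.7, 15.1 and 8.95 CPM. LPS and control did not overlap, but the ranges of torin1 and LPS libraries did in both kinds of RNA. The rise with LPS was 1.32 ± 0.31 in total (adjusted p = 0.0059) and 1.32 ± 0.34 in polysome-associated mRNA (adjusted p = 0.0126), and the fall with torin1 was -0.62 ± 0.31 (adjusted p = 0.157) and -0.79 ± 0.33 (adjusted p = 0.141). The total fall did not pass without experiment 2 (-0.56, adjusted p = 0.402), nor the polysome fall without experiment 1 (-0.56, adjusted p = 0.55). Exons of Ddit3 overlap those of Mars on the other strand.

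The largest moves among the members were those of Ddit4 and Trib3. Ddit4 (chr10:59949669-59951834) codes for REDD1, an inhibitor of mTORC1 that stress induces. It was at 0.486, 0.636 and 0.585 CPM in control, 10.9, 6.12 and 2.72 CPM with LPS and 0.230, 0.235 and 0.209 CPM with torin1 in total mRNA, the last from 6 to 7 reads a library. The polysome levels were 2.14, 1.10 and 1.84 CPM, 21.9, 14.7 and 4.44 CPM and 0.592, 0.676 and 0.244 CPM. Every LPS library was above every control library, and every torin1 library was below every control library. The changes with LPS were 3.52 ± 0.46 in total (adjusted p = 0.000146) and 3.01 ± 0.54 in polysome-associated mRNA (adjusted p = 0.00184), those with torin1 -4.85 ± 0.53 (adjusted p = 0.00023) and -4.77 ± 0.61 (adjusted p = 0.00128). LPS with torin1 was also lower than control, at -1.33 ± 0.59 (adjusted p = 0.0873) in total mRNA, which did not pass without experiment 2 (-1.27, adjusted p = 0.308), and at -1.76 ± 0.59 (adjusted p = 0.0384) in polysome-associated mRNA.

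Trib3 (chr2:152337422-152344032) codes for a pseudokinase that ATF4 and CHOP induce and that restrains ATF4 and AKT signalling. Its total level was 1.97, 1.45 and 0.819 CPM in control, 17.03, 13.6 and 3.74 CPM with LPS and 0.428, 1.58 and 0.418 CPM with torin1 (12 to 47 reads a library). In polysomes it was at 3.27, 2.63 and 0.958 CPM, 25.8, 21.4 and 3.84 CPM and 0.927, 2.52 and 0.797 CPM. The LPS libraries were above all control and all torin1 libraries, with experiment 3 far below experiments 1 and 2, while torin1 and control overlapped. LPS changed it by 3.01 ± 0.61 (adjusted p = 0.00235) and 2.90 ± 0.70 (adjusted p = 0.00947), and torin1 by -3.81 ± 0.65 (adjusted p = 0.00234) and -3.59 ± 0.73 (adjusted p = 0.0107). Trib3 with torin1 differed from control by -0.80 ± 0.67 in total mRNA, which did not pass (adjusted p = 0.356) but did with the experiment as a replicate block (-0.83, adjusted p = 0.147) and without experiment 2 (-1.71, adjusted p = 0.176).

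Ppp1r15a and Cebpb went the other way under torin1. Ppp1r15a (chr7:45522916-45526268) codes for GADD34, which brings a phosphatase to eIF2 and so ends the stress response. It was at 18.4, 18.5 and 8.43 CPM in control, 62.9, 73.6 and 49.5 CPM with LPS and 86.5, 109 and 73.9 CPM with torin1 in total mRNA, and at 31.01, 30.5 and 12.99 CPM, 95.5, 151 and 58.7 CPM and 110.3, 192 and 95.1 CPM in polysome-associated mRNA. In total mRNA each torin1 library was above each LPS library, the closest by a small margin, and in polysome-associated mRNA the ranges overlapped. LPS raised it by 2.04 ± 0.28 (adjusted p = 0.000222) and 2.04 ± 0.42 (adjusted p = 0.00406). The further rise with torin1 was 0.53 ± 0.27 in total mRNA (adjusted p = 0.162), which did not pass without experiment 1 (0.57, adjusted p = 0.318) or without experiment 2 (0.51, adjusted p = 0.294). In polysome-associated mRNA the difference was 0.38 ± 0.41 and did not pass (adjusted p = 0.578), but did with the replicate block (0.43, adjusted p = 0.141).

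Cebpb (chr2:167688915-167690418) codes for C/EBPβ, a partner of ATF4 that also drives inflammatory genes in macrophages. Its levels were 7.65, 5.90 and 5.33 CPM in control, 23.9, 33.3 and 15.01 CPM with LPS and 49.4, 48.9 and 34.5 CPM with torin1 in total mRNA, and 17.3, 10.6 and 11.7 CPM, 32.2, 47.1 and 19.1 CPM and 59.7, 85.3 and 47.3 CPM in polysome-associated mRNA. The 3 groups did not overlap in either kind of RNA, with control lowest and torin1 highest. The rise with LPS was 1.94 ± 0.28 (adjusted p = 0.000278) and 1.31 ± 0.33 (adjusted p = 0.012), and the further rise with torin1 was 0.88 ± 0.26 (adjusted p = 0.0294) and 0.97 ± 0.33 (adjusted p = 0.0771). The polysome rise with torin1 kept its size without experiment 1 (1.0) and did not pass (adjusted p = 0.304).

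The remaining ATF4 partners moved less. Ppp1r15b, which codes for the constitutive eIF2 phosphatase subunit CReP, was at 286 to 304 CPM in control, 475 to 659 CPM with LPS and 388 to 419.7 CPM with torin1 in total mRNA, with no overlap of the 3 ranges. It rose by 0.87 ± 0.13 with LPS (adjusted p = 0.000373) and fell with torin1 (-0.42 ± 0.13, adjusted p = 0.0355). In polysome-associated mRNA its difference with torin1 was -0.32 ± 0.18, which did not pass (adjusted p = 0.268) but did with the replicate block (adjusted p = 0.106). Cebpg, a dimer partner of ATF4, had the smallest changes of the 8 genes, 0.13 ± 0.12 with LPS (adjusted p = 0.403) and 0.03 ± 0.12 with torin1 (adjusted p = 0.887) in total mRNA. Without experiment 3 its LPS difference passed (0.25, adjusted p = 0.221). So 7 of the 8 rose with LPS in both kinds of RNA, against 32.2% and 26.4% of all genes. With torin1 5 fell and 2 rose in total mRNA (26.4% and 27.3% of all genes). The polysome counts with torin1 were 4 lower and 1 higher (18.2% and 20.3% of all genes). The group's median changes in total mRNA were 1.63 with LPS and -0.52 with torin1.

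**Figure D3:**
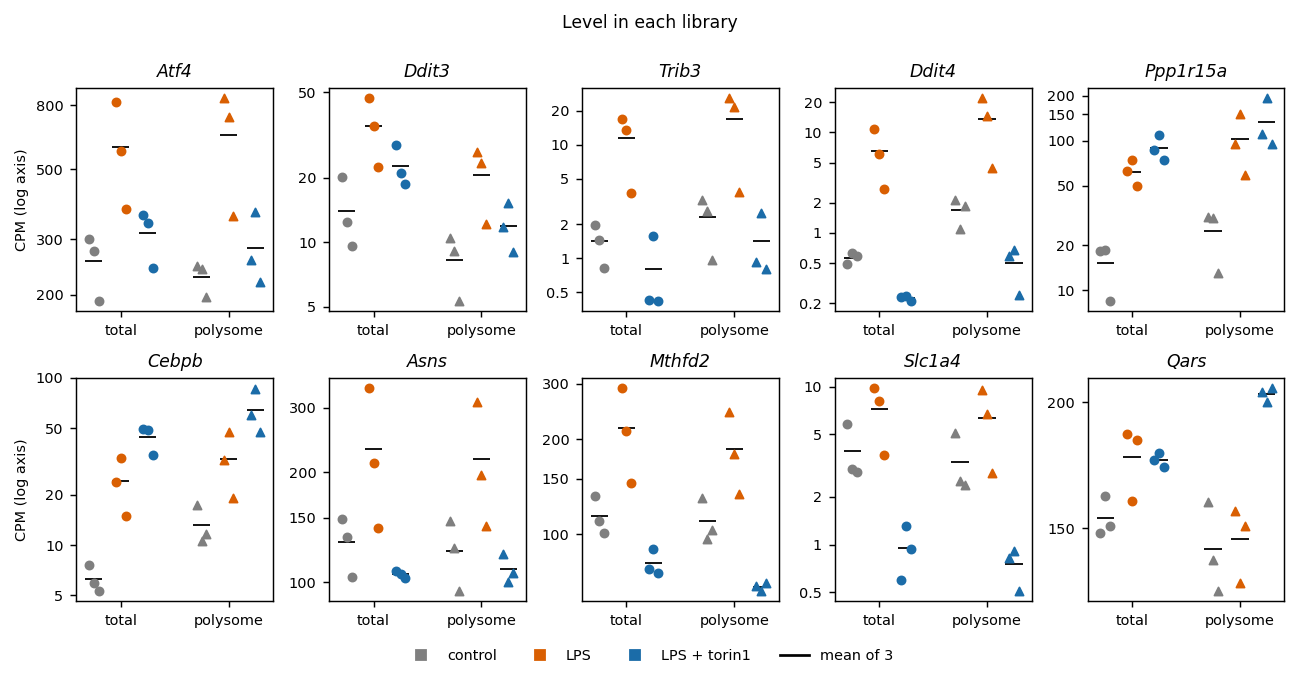
CPM (log axis) of the 10 genes given library by library, in total (circles) and polysome-associated mRNA (triangles); within each cluster, points run from experiment 1 to 3 and the bar is their mean. Torin1 points (blue) lie above the LPS points (orange) for Cebpb and, in polysome-associated mRNA, for Qars, and below the control points (grey) for Ddit4, Mthfd2 and Slc1a4.

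Among the 8 enzymes of amino acid and one-carbon synthesis, LPS raised few and torin1 lowered nearly all. With LPS, Asns, Mthfd2 and Psph rose in total mRNA and Asns and Mthfd2 in polysome-associated mRNA. These were 37.5% and 25% of the 8, near the 32.2% and 26.4% of all genes that rose. Psph, which makes serine from phosphoserine, passed narrowly in total mRNA (0.28 ± 0.18, adjusted p = 0.243) and not without experiment 1 or 2 (adjusted p = 0.602 and 0.39). With torin1 all 8 fell in total mRNA and 7, all but Pycr1, in polysome-associated mRNA, with group medians of -0.94 and -0.93. Of all genes, 26.4% and 18.2% fell. Shmt2 did not pass with LPS (-0.24 ± 0.16 in total mRNA, adjusted p = 0.257) but was lower without experiment 2 in total (-0.54, adjusted p = 0.00983) and polysome-associated mRNA (-0.63, adjusted p = 0.0731). The group's median change with LPS was near 0, at 0.01 and 0.02.

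Asns (chr6:7675169-7693254), asparagine synthetase, is the classic ATF4 target. It was at 149, 133 and 103 CPM in control, 339.9, 212 and 141 CPM with LPS and 107.4, 105.5 and 103 CPM with torin1 in total mRNA, and at 147, 124.2 and 94.7 CPM, 311, 196 and 142 CPM and 119.03, 100.3 and 105.97 CPM in polysome-associated mRNA. The LPS library of experiment 3 was below the control library of experiment 1 in both kinds of RNA, so those ranges overlapped, while all torin1 libraries were below all LPS libraries. The change with LPS was 0.85 ± 0.26 (adjusted p = 0.0226) and 0.83 ± 0.26 (adjusted p = 0.0348), and with torin1 -1.13 ± 0.26 (adjusted p = 0.0102) and -1.0 ± 0.27 (adjusted p = 0.0327). Torin1-treated cells differed from control by -0.29 ± 0.26 in total mRNA, which did not pass (adjusted p = 0.395) except without experiment 3 (-0.41, adjusted p = 0.219).

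Mthfd2 (chr6:83305691-83325908), a mitochondrial enzyme of the folate cycle, was at 133, 110.6 and 100.9 CPM in control, 292, 213 and 146 CPM with LPS and 77.7, 89.6 and 75.5 CPM with torin1 (total mRNA). The polysome levels were 130.7, 96.4 and 103 CPM, 245, 179.5 and 134 CPM and 68.6, 66.2 and 69.9 CPM. The 3 groups did not overlap in either, with torin1 lowest and LPS highest. LPS raised it by 0.92 ± 0.21 (adjusted p = 0.00551) and 0.76 ± 0.21 (adjusted p = 0.0185), and torin1 lowered it (-1.42 ± 0.22, adjusted p = 0.00137, and -1.45 ± 0.21, adjusted p = 0.00253).

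The serine pathway enzymes Phgdh, Psat1 and Psph and the serine to glycine enzyme Shmt2 lay below LPS with torin1. Psat1 was at 342 to 525 CPM with LPS and fell to a range of 202 to 247 CPM with torin1 in total mRNA (-0.98 ± 0.16, adjusted p = 0.00164), against 419 to 491 CPM in control. Shmt2 was at 233 to 329 CPM with LPS and 139.7 to 152 CPM with torin1 (-0.90 ± 0.16, adjusted p = 0.00298). Phgdh was at 78.3 to 122 CPM with LPS and 51.3 to 74.9 CPM with torin1 (-0.69 ± 0.18, adjusted p = 0.0175). The polysome fall of Phgdh passed narrowly (-0.57 ± 0.31, adjusted p = 0.25) and not without experiment 1 or 3 (adjusted p = 0.818 and 0.385). Of the proline pathway, Aldh18a1, which makes pyrroline-5-carboxylate from glutamate, fell (-1.26 ± 0.15 and -1.36 ± 0.24, adjusted p = 0.000349 and 0.00528). Pycr1, which makes proline from it, had the smallest fall of the group, at -0.40 ± 0.22 in total mRNA (adjusted p = 0.201), a call lost with any 1 experiment left out (adjusted p = 0.535, 0.387 and 0.254).

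Of the 6 transporters, 5 rose with LPS in total mRNA and all 6 fell with torin1, Slc1a4 the most. Of all genes, 32.2% rose with LPS and 26.4% fell with torin1 in total mRNA. Slc1a4 (chr11:20302180-20332713) codes for ASCT1, a carrier of alanine, serine and cysteine. Its total levels were 5.83, 3.02 and 2.87 CPM in control, 9.81, 8.07 and 3.71 CPM with LPS and 0.592, 1.31 and 0.941 CPM with torin1, and its polysome levels 5.09, 2.52 and 2.39 CPM, 9.49, 6.66 and 2.85 CPM and 0.824, 0.911 and 0.509 CPM. LPS and control overlapped, and every torin1 library was below every control library. The rise with LPS was 0.88 ± 0.40 (adjusted p = 0.0927) and 0.92 ± 0.44 (adjusted p = 0.134), and without experiment 2 neither passed (adjusted p = 0.368 and 0.317). The fall with torin1 was -2.92 ± 0.45 (adjusted p = 0.00141) and -3.08 ± 0.49 (adjusted p = 0.00336), or 7.56-fold and 8.47-fold.

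Slc7a5 and Slc3a2 code for the light and heavy chains of the leucine transporter LAT1-4F2hc. Slc7a5 was at 173 to 213 CPM with LPS and 71.0 to 76.6 CPM with torin1, below its 134.6 to 165 CPM in control, a change of -1.40 ± 0.11 (adjusted p = 8.12e-05) in total and -1.43 ± 0.22 (adjusted p = 0.00267) in polysome-associated mRNA. Slc3a2 was at 132 to 163 CPM in control, 291 to 376 CPM with LPS and 219.6 to 297 CPM with torin1, where the last 2 ranges overlapped. Its rise with LPS was 1.15 ± 0.15 (adjusted p = 0.000148), and its torin1 change of -0.28 ± 0.15 passed narrowly (adjusted p = 0.19) but not with any 1 experiment left out (adjusted p = 0.372, 0.269 and 0.3 without experiments 1, 2 and 3). With torin1 it stayed above control by 0.88 ± 0.15 (adjusted p = 0.000796) in total and 0.70 ± 0.21 (adjusted p = 0.0248) in polysome-associated mRNA, and it was the only 1 of the 6 transporters above control there. The LPS rise of Slc7a5 in total mRNA was 0.34 ± 0.11 (adjusted p = 0.0287) and did not pass without experiment 2 (adjusted p = 0.258).

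The cationic amino acid carrier Slc7a1 rose with LPS in total mRNA (0.51 ± 0.12, adjusted p = 0.00631) and fell with torin1 (-0.76 ± 0.12, adjusted p = 0.00178). Slc38a2, SNAT2, did so by less (0.35 ± 0.12 and -0.34 ± 0.12, adjusted p = 0.0396 and 0.0609). Slc1a5, the glutamine carrier ASCT2, had the smallest LPS change of the transporters (0.17 ± 0.12, adjusted p = 0.269, with passing values of 0.126 under the replicate block and 0.234 without experiment 1) and fell with torin1 (-0.77 ± 0.12, adjusted p = 0.00148). In polysome-associated mRNA 4 of the 6 rose with LPS and 4 fell with torin1 (26.4% and 18.2% of all genes). Slc3a2 and Slc38a2 were the 2 that did not fall there, and both fell with the replicate block (adjusted p = 0.153 and 0.112).

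Most of the 20 cytosolic synthetase genes rose by small amounts with LPS and fell with torin1. With LPS, 16 rose and 1, Mars, was lower in total mRNA, and 10 rose in polysome-associated mRNA, with medians of 0.35 and 0.29. Of all genes, 32.2% rose and 34.3% fell in total mRNA, and 26.4% rose in polysome-associated mRNA. With torin1, 18 fell in total mRNA, and 13 fell and 1, Qars, rose in polysome-associated mRNA, with medians of -0.56 and -0.51. Of all genes, 26.4% fell in total mRNA, and 18.2% fell and 20.3% rose in polysome-associated mRNA. Nars, the asparagine enzyme, had the largest LPS rise of the 20 in total mRNA, with 278 to 331 CPM in control and 406 to 740.3 CPM with LPS (0.82 ± 0.19, adjusted p = 0.00477), and was at 244 to 259 CPM with torin1 (-1.13 ± 0.19, adjusted p = 0.00203). Rars, the arginine enzyme, followed at 0.75 ± 0.16 (adjusted p = 0.0031) and had the largest polysome rise (0.77 ± 0.21, adjusted p = 0.0184). The largest falls with torin1 in total mRNA were those of Cars (-1.18 ± 0.19, adjusted p = 0.00167), the cysteine enzyme, Nars and Yars (-1.04 ± 0.12, adjusted p = 0.000369), the tyrosine enzyme.

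A few synthetases moved little. Vars, the valine enzyme, passed in neither contrast, with 0.04 ± 0.19 for LPS (adjusted p = 0.87) and -0.19 ± 0.19 for torin1 (adjusted p = 0.481) in total mRNA. It was lower with torin1 in total mRNA without experiment 1 (-0.38, adjusted p = 0.158) and lower with LPS in polysome-associated mRNA without experiment 2 (-0.41, adjusted p = 0.0877). Mars, the methionine enzyme, was at 181 to 187 CPM in control, 162 to 169 CPM with LPS and 108 to 115.8 CPM with torin1, with no overlap. Its LPS difference of -0.15 ± 0.08 (adjusted p = 0.165) passed with all 3 experiments but not with any 1 left out (adjusted p = 0.33, 0.339 and 0.384 without experiments 1, 2 and 3), while its fall with torin1 was -0.57 ± 0.08 (adjusted p = 0.00112). Dars and Eprs, the aspartate and the glutamate and proline enzymes, did not pass with LPS in total mRNA (adjusted p = 0.267 and 0.365), and Dars did with the replicate block (adjusted p = 0.173).

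Qars (chr9:108507706-108515941), the glutamine enzyme, stood apart in the polysome libraries with torin1. In polysome-associated mRNA it was at 159, 139.6 and 130.1 CPM in control, 156, 132 and 151 CPM with LPS and 205, 200.1 and 207 CPM with torin1. In total mRNA the levels were 148, 162 and 151 CPM, 186, 159.8 and 183 CPM and 175, 178 and 173 CPM. All 3 torin1 polysome libraries were above all other polysome libraries, while the torin1 total libraries lay inside the range of the LPS total libraries. The torin1 change was 0.48 ± 0.14 in polysome-associated mRNA (adjusted p = 0.042) and -0.01 ± 0.09 in total mRNA (adjusted p = 0.951). Without experiment 3 the polysome change was 0.50 and did not pass (adjusted p = 0.322). With LPS Qars differed by 0.03 ± 0.14 in polysome-associated mRNA, which did not pass (adjusted p = 0.873), and rose in total mRNA by 0.20 ± 0.09 (adjusted p = 0.107), a call lost without experiment 1 or 3 (adjusted p = 0.365 and 0.433).

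Several smaller polysome calls did not pass with only 2 experiments. Of the 23 LPS rises in polysome-associated mRNA, 8 were lost without experiment 1 (Slc7a5, Cars, Farsb, Gars, Hars, Kars, Sars and Wars, adjusted p from 0.253 to 0.611). Without experiment 3, 8 were lost as well (Slc7a5, Slc7a1, Farsa, Farsb, Gars, Hars, Kars and Sars, 0.254 to 0.482), and without experiment 2, 4 (Slc7a5, Slc7a1, Slc1a4 and Farsa, 0.305 to 0.594). Of the 30 torin1 calls there, 10 were lost without experiment 1 (Atf4, Ddit3, Cebpb, Phgdh, Psph, Gars, Kars, Mars, Rars and Sars, 0.297 to 0.818) and 9 without experiment 3 (Phgdh, Slc7a1, Gars, Kars, Mars, Qars, Rars, Sars and Tars, 0.261 to 0.714). Some of the changes lost kept much of their size, such as the LPS rise of Kars (0.35 with all experiments, 0.35 without experiment 1 and 0.29 without experiment 3) and the torin1 fall of Rars (-0.57, -0.60 and -0.59). In total mRNA the LPS rises of Gars, Iars and Lars were lost without experiment 1, and the torin1 fall of Sars was lost without experiment 1. With the experiment as a replicate block, the polysome rises of Slc38a2, Dars, Lars, Tars and Yars with LPS and the polysome falls of Eprs, Iars and Lars with torin1 passed in addition (adjusted p from 0.108 to 0.24 and from 0.118 to 0.16).

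The nuclear genes for mitochondrial synthetases, which serve protein synthesis inside mitochondria, were looked at beside the cytosolic ones. Of 17, none rose and 8 fell with LPS in each kind of RNA (34.3% and 28.7% of all genes fell), with medians of -0.28 in total and -0.22 in polysome-associated mRNA. By edgeR, 8 and 5 of the 17 had an unadjusted p under 0.05 in either direction, as did 5954 and 4790 of the 11243 genes. Pars2, the mitochondrial proline enzyme, fell most, with -1.07 ± 0.16 (adjusted p = 0.00042) in total and -1.0 ± 0.19 (adjusted p = 0.0024) in polysome-associated mRNA. With torin1, 3 of the 17 rose and 3 fell in total mRNA and 3 fell in polysome-associated mRNA, around medians of 0.01 and -0.07. Each of these counts was 17.6% of the list, against 27.3%, 26.4% and 18.2% of all genes. None of the 14 of these genes with a RefSeq window held the TGATGNAA motif, against 5 of the 13 cytosolic ones. Of all genes with a window only 2.82% held it, so none among 14 does not set the mitochondrial list apart from the table. The difference between the lists was not tested. In the scaffold genes of the cytosolic synthetase complex, Aimp1 and Eef1e1 rose and Aimp2 fell with LPS in total mRNA (32.2% and 34.3% of all genes). All 3 fell with torin1 there (26.4% of all genes). Their polysome counts were 2 higher and 0 lower with LPS (26.4% and 28.7% of all genes). With torin1 the polysome counts were 0 higher and 2 lower (20.3% and 18.2% of all genes), and Aimp1, at 0.12, did not pass. A list of 3 genes is too short to set against these shares.

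**Figure D4:**
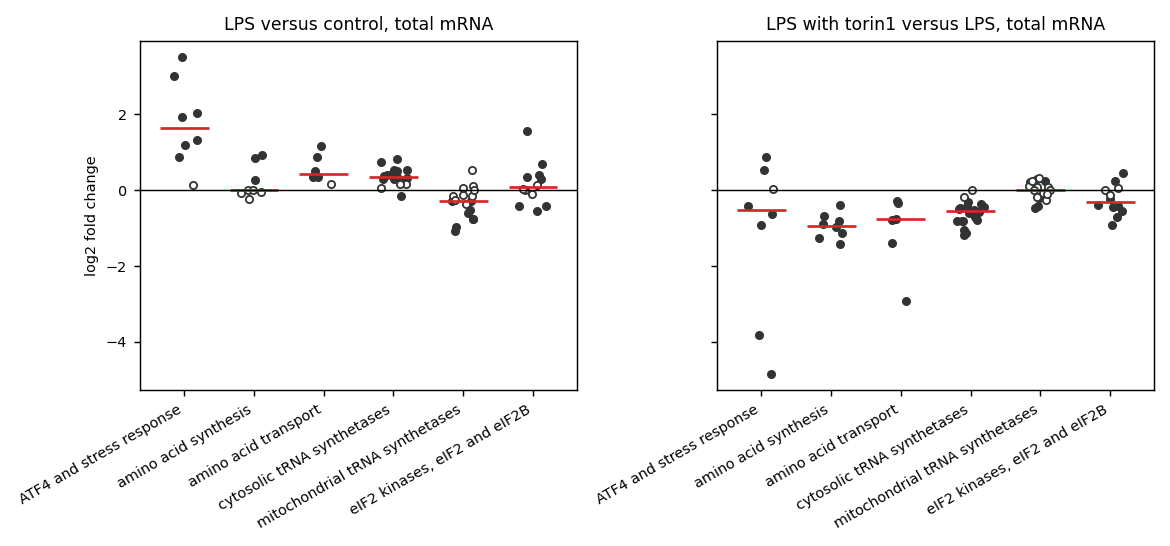
Log2 fold change of each gene in total mRNA, by list, for LPS versus control (left) and LPS with torin1 versus LPS (right); filled points passed the false discovery rate of 0.25, open points did not, and red bars are medians. The medians of cytosolic and mitochondrial synthetases are on opposite sides of 0 with LPS, and with torin1 that of the cytosolic list is below 0 and that of the mitochondrial list is at 0.01.

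Upstream of ATF4 lie the eIF2 kinases, eIF2 and eIF2B. Of their 12 genes, 5 rose and 3 fell with LPS in both kinds of RNA, or 41.7% and 25%, where 32.2% and 34.3% of all genes did in total and 26.4% and 28.7% in polysome-associated mRNA. Eif2ak2, the interferon-induced kinase PKR, rose most (1.57 ± 0.20 in total mRNA, adjusted p = 0.000138) and Eif2ak4, the amino acid sensor GCN2, fell most (-0.56 ± 0.10, adjusted p = 0.00121). With torin1, 2 rose and 7 fell in total mRNA (27.3% and 26.4% of all genes), among them Eif2ak3, which codes for the endoplasmic reticulum stress kinase PERK and rose (0.45 ± 0.10, adjusted p = 0.0093), and Eif2ak2, which fell (-0.92 ± 0.20, adjusted p = 0.00711). Phosphorylation of eIF2 was not measured in these libraries.

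Further known ATF4 targets and partners were taken from a list of 18, of which 15 were in the table (Vldlr, Gdf15 and Fgf21 were not). With LPS 11 rose and none fell in total mRNA and 9 rose in polysome-associated mRNA (32.2% and 26.4% of all genes rose), around medians of 0.98 and 0.82. With torin1 10 fell and 3 rose in total mRNA (26.4% and 27.3% of all genes). The polysome counts with torin1 were 8 lower and 1 higher (18.2% and 20.3% of all genes). By edgeR, 10 and 7 of the 15 had an unadjusted p under 0.05 with LPS, as did 5954 and 4790 of the 11243 genes. Chac1, a glutathione-degrading enzyme, was at 0.644 to 4.71 CPM in control, 6.82 to 29.3 CPM with LPS and 0.418 to 2.66 CPM with torin1 in total mRNA. It had the largest rise of the list with LPS (3.01 ± 0.75, adjusted p = 0.00745) and its largest fall with torin1 (-3.42 ± 0.77, adjusted p = 0.00896). The TGATGNAA motif was held by 5 of the 13 genes of this list with a window, against 2.82% of all genes with a window. These genes too were chosen as known ATF4 targets or partners, which favours a higher share.

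Beyond the members, 19 other genes of amino acid metabolism gave 6 that rose and 7 that fell with LPS in total mRNA, or 31.6% and 36.8%, near the 32.2% and 34.3% of all genes. The largest rise was in Ass1, the argininosuccinate synthase that remakes arginine from citrulline, which was at 0.820 to 1.23 CPM in control and 14.3 to 18.7 CPM with LPS (4.04 ± 0.40, adjusted p = 2.67e-05). With torin1, 10 fell and 2 rose (26.4% and 27.3% of all genes), and Ass1 fell most (-2.02 ± 0.36, adjusted p = 0.00271). Among 11 other transporters, 5 rose and 1 fell with LPS in total mRNA (45.5% and 9.09%). Slc7a11, the cystine carrier xCT, rose most, with 78.5 to 93.3 CPM in control and 618 to 1447 CPM with LPS (3.47 ± 0.36, adjusted p = 3.84e-05), and was at 486 to 1034 CPM with torin1, a change of -0.16 ± 0.33 that did not pass (adjusted p = 0.75). Slc43a2, a carrier of large neutral amino acids, fell with LPS (-2.28 ± 0.34, adjusted p = 0.000371). With torin1, 5 of these 11 transporters rose and 3 fell in total mRNA (27.3% and 26.4% of all genes), with a median of 0.10. In polysome-associated mRNA 4 rose and 1 fell with torin1 (20.3% and 18.2% of all genes).

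Translation efficiency asks whether the polysome-associated change of a gene differed from its change in total mRNA. By the edgeR interaction test over all 18 libraries, with a false discovery rate of 0.25 and a fold of at least 1.2, no member passed in any contrast, and none of the 11243 genes did (0% of the table). At an unadjusted p under 0.05 the members numbered 0 for LPS versus control, 1 for torin1 versus LPS and 0 for torin1 versus control, and all genes numbered 44, 110 and 145. With no change in any gene, about a 0.05 share of the table would be due there, and these counts were far below it. That no member passed this unpaired test therefore does not show that efficiency stayed the same. DESeq2 and an analysis of partial variance also gave 0 members. Their counts over all genes are not given here, so those 0 counts cannot be read against the table. The member with p under 0.05 was Qars, at 0.46 ± 0.15 (adjusted p = 1, and 0.805 with the lysate as a replicate block). With that block 25 genes of the table (0.222%) passed for torin1 versus LPS and 3 (0.0267%) for torin1 versus control, none of them a member. For Atf4 the interaction was 0.29 ± 0.43 with LPS and -0.31 ± 0.43 with torin1. The SE of the efficiency change for torin1 versus LPS ran from 0.14 (Kars) to 1.02 (Trib3). With its own tool, anota2seq, and the same thresholds, the study reported a subset of mRNAs with altered translation efficiency after LPS. The 0% of the table therefore holds for the edgeR interaction test used here.

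**Figure D5:**
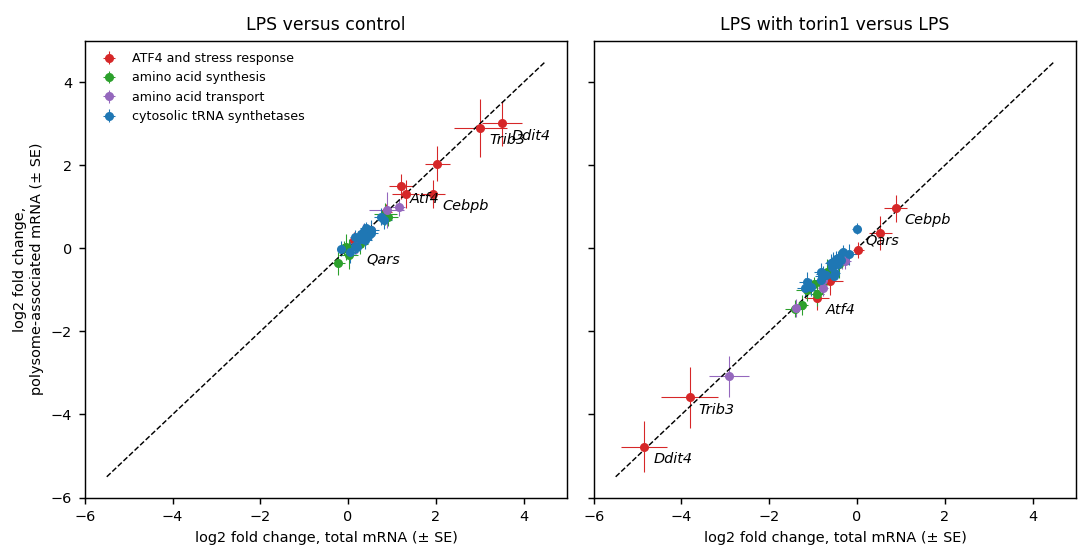
Log2 fold change in total (horizontal axis) against polysome-associated mRNA (vertical axis), with standard errors, for the 42 genes in LPS versus control (left) and LPS with torin1 versus LPS (right); the dashed line marks equal changes and colours give the role. In the right panel Qars lies at -0.01 on the horizontal and 0.48 on the vertical axis, above the line, and Ddit4 and Trib3 lie at the lower left.

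Cells given LPS and torin1 were also set against control. In total mRNA 6 members were above control and 23 below it, where 33.1% and 33.6% of all genes were higher and lower, with a member median of -0.30. In polysome-associated mRNA 6 were above and 17 below, against 28.5% and 29.7%, with a median of -0.22. The libraries of the groups did not overlap for 6 members above and 23 below control in total mRNA (30.2% and 31% of all genes) and for 5 and 17 in polysome-associated mRNA (23.3% and 23.5%). With the replicate block 7 were above and 25 below in total mRNA (36.6% and 36.9% of all genes) and 7 and 22 in polysome-associated mRNA (31.6% and 34.7%). Of the polysome calls, 5 were lost without experiment 1 (Phgdh, Cars, Farsa, Farsb and Tars) and 7 without experiment 3 (Phgdh, Aars, Farsa, Farsb, Hars, Mars and Tars), which left 11 members below control. Of the 8 synthesis genes, 7 were below control in total and 6 in polysome-associated mRNA, with medians of -0.64 and -0.73. Of the synthetases 11 of 20 were below and 1, Qars, above control in total mRNA. Qars was above by 0.19 ± 0.09 (adjusted p = 0.121), which did not pass without experiment 1 or 3 (adjusted p = 0.277 and 0.351), and by 0.51 ± 0.14 in polysome-associated mRNA (adjusted p = 0.0141). Of the stress response genes, Cebpb and Ppp1r15a were furthest above control (2.82 ± 0.28 and 2.57 ± 0.29 in total mRNA, adjusted p = 2.48e-05 and 4.99e-05).

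Atf4 with torin1 differed from control by 0.29 ± 0.27 in total mRNA and did not pass (adjusted p = 0.406), though it did with the replicate block (0.30, adjusted p = 0.0466). In polysome-associated mRNA the difference was 0.30 ± 0.30 (adjusted p = 0.456). Ddit3 was above control in total mRNA (0.70 ± 0.31, adjusted p = 0.0886), not without experiment 2 (adjusted p = 0.284), and in polysome-associated mRNA just missed the threshold (adjusted p = 0.25) and passed with the replicate block (0.56, adjusted p = 0.0303).

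The 3 LPS experiments differed in how far the members rose. Among the LPS libraries, experiment 1 was the highest for 33 of the 42 members in polysome-associated mRNA and for 30 in total mRNA, and experiment 3 was the lowest for 27 and 30. The difference between LPS and control within an experiment had a median over the members of 0.51, 0.44 and 0.27 on the log2 scale in total mRNA for experiments 1, 2 and 3, all above 0. For torin1 against LPS the medians were -0.83, -0.66 and -0.45, all below 0. In control libraries experiment 1 was likewise the highest for 25 members in total and 31 in polysome-associated mRNA.

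Some counts can hold reads of a neighbour. In the GENCODE M21 annotation of GRCm38, exons of 15 members overlap a gene on the other strand and exons of 2, Cebpg and Aars, overlap one on the same strand. The pairs include Ddit3 with Mars, Hars with Hars2, Cebpb with Tmem189 and Ppp1r15a with Tulp2. The library kit marks strand, but the strand setting of the counting was not given in the sources used here, so the overlapping reads are uncertain for these genes. Pseudogenes named after Phgdh and Kars are annotated as well.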

How the data were processed

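Total and polysome-associated mRNA of 9 RAW264.7 lysates (3 treatments in 3 independent experiments) was sequenced as 18 libraries. The authors made the deposited values with the nextflow RNAseq pipeline, aligning paired reads of stranded, rRNA-depleted libraries with Hisat2 to GRCm38 and counting them per Ensembl gene with featureCounts. They kept protein-coding genes with at least 1 read in every library, so genes without reads in any 1 library are missing by construction. The deposited unit is raw counts, and 0 columns of per-sample values were left unused.

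Counts were tested with edgeR 4.0.16 (TMM, glmQLFit, glmQLFTest, R 4.3.3) on all 11243 genes, in 1 model per kind of RNA with all 3 treatments, at a Benjamini-Hochberg false discovery rate of 0.25, the study's threshold. Translation efficiency was the interaction of RNA kind and treatment in 1 model of 18 libraries, with a fold of at least 1.2 in addition, and anota2seq, the study's tool, was not used here. CPM used TMM library sizes. Per-experiment differences used log2 CPM with a pseudocount of 0.5. Alternatives were DESeq2 1.42.0, DESeq2 size factors, a mean count of at least 50, only the 2 treatments compared, an FDR of 0.05, an analysis of partial variance (limma 3.58.1), leaving out each experiment, and the experiment (or lysate) as a replicate block. On simulated counts of 11243 genes with 200 changed by 2 on the log2 scale, the test recovered 95.5% in total and 96% in polysome-associated mRNA for LPS versus control, and 91.5% for translation efficiency. The simulation held no difference between experiments. Recovery of smaller changes, such as those of most members, was not measured.

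Replicate numbers mark the study's independent experiments. Equal numbers were taken as paired in the per-experiment differences, the replicate block and the analysis of partial variance. The main tests had no term for the experiment or the lysate, so their p-values and standard errors are unpaired. Deviations from group means of libraries with the same number correlated at 0.336 on average (0.149 to 0.426) in total and 0.291 (-0.0919 to 0.739) in polysome-associated mRNA, against -0.167 and -0.143 for different numbers. Deviations within a group cancel out, so the negative values follow from the positive ones and are no separate evidence of pairing.

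The 42 members and the other gene lists were chosen with earlier results of these data known. Library-by-library values are given for Atf4, Ddit3, Trib3 and Asns and for the up to 4 members with the largest polysome rise and the up to 4 with the largest polysome fall in LPS versus control and in LPS with torin1 versus LPS, among those that passed and moved the same way in all 3 experiments. Of other lists, at most the largest rise and fall are named, and the 3 scaffold genes were named after their values were seen. The promoter windows printed are those of members with a motif match, and 1 such match is not reported here. P-values cover the spread between these libraries only.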

Additional observations from a re-analysis of the deposited data

How the results depend on the processing

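The main counts of members were 31 higher and 1 lower for LPS versus control (total mRNA), 23 and 0 (polysome-associated mRNA), and 2 higher and 37 lower, then 2 and 28, for torin1 versus LPS. At an FDR of 0.05, the LPS counts became 0 lower (total) and 14 higher (polysome), the torin1 rises became 1 in each kind of RNA, and the members below control with torin1 became 14 (of 23) in total and 11 (of 17) in polysome-associated mRNA. The lower count for LPS in total mRNA became 2 with a mean count of at least 50 and 0 with only the 2 treatments compared. Leaving out 1 experiment gave 0 to 1 for that count, 15 to 24 polysome rises and 0 to 2 polysome falls with LPS (2 without experiment 2), 1 to 2 torin1 rises in each kind of RNA, and 11 to 20 polysome members below control with torin1. Changes of Qars that did not pass turned direction without an experiment, from -0.045 (without experiment 3) to 0.085 (without experiment 2) for LPS in polysome-associated mRNA and from -0.087 (without experiment 2) to 0.031 (without experiment 3) for torin1 in total mRNA. For all of these the cause was not tested. With the experiment as a replicate block, the counts were 33 higher and 1 lower, 28 and 0, 2 and 37, and 3 and 34 in the same order, and 7 higher and 25 lower in total and 7 and 22 in polysome-associated mRNA for torin1 versus control; the block changed no call of a gene given library by library other than those printed beside its result. Over the log2 fold changes of the 10 genes given library by library, counted once per comparison and alternative, 535 kept direction and side of the threshold, 26 no longer passed, 12 passed in addition and 3 turned direction. Depth limits Ddit4, Trib3 and Slc1a4 most, since some of their torin1 libraries held few reads. The median of all genes moved by under 0.1 between scalings.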
